A study of Mus musculus with 6 samples.

Results

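The genes described here were the chemokines of the CC and CXC families and the receptors of both families. They were taken from the deposited table of counts as the protein-coding genes whose symbol starts with Ccl, Cxcl, Ccr or Cxcr and goes on with a digit. The rule found 46 of the 26743 genes in the table, of which 19 were CC ligands, 10 were CXC ligands, 11 were CC receptors and 6 were CXC receptors. The symbol Ccl25 stood under 2 gene identifiers, so that the 46 genes carried 45 symbols, and 1 further match, the pseudogene Ccl19-ps1, was left out by its biotype.

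Chemokines are small secreted proteins that bind receptors coupled to G proteins and direct the migration of cells along their gradient. The family names describe the first cysteines of the mature ligand, which are adjacent in CC chemokines and separated by a single residue in CXC chemokines. Inflammatory members are induced in macrophages and stromal cells and attract monocytes, neutrophils and lymphocytes, while homeostatic members are made constantly. In the testis, Cxcl12 made by somatic cells acts on Cxcr4 of the spermatogonial stem cells, and resident macrophages lie between the tubules and around them.

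Total RNA of whole testes was sequenced from 3 wild type (WT) mice and 3 Trf2-/- mice on post natal day 21. Trf2, listed in the table as Tbpl1, is a relative of the TATA-binding protein, and the comparison asks which transcripts of the testis depend on it at the age when round spermatids appear. The labels name no treatment, strain or tissue-restricted driver, and the allele was present in the whole animal. Adult males without Trf2 are sterile. The libraries were made with a strand-preserving kit after removal of ribosomal RNA and read as single-end reads of 50 bases, and the study names its replicates as independent biological ones.

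The libraries held 21582123 to 29859347 counts in WT and 15187062 to 24530489 in Trf2-/-. The counts of Tbpl1 were 8840, 7391 and 6119 in WT against 1586, 1500 and 882 in Trf2-/-, so that each mutant kept some reads of the gene and had fewer of them than any WT mouse. Marker lists of testicular cell types were summed in CPM (counts-per-million, scaled to the depth of each library). The spermatocyte list (Sycp3, Sycp1, Spo11, Piwil1, Ddx4) summed to 2521 to 2649 CPM in WT and 2571 to 2708 CPM in Trf2-/-. Within it, edgeR called Sycp3 and Sycp1 higher in Trf2-/- (log2 fold changes of 0.24 and 0.29) and Piwil1 lower (-0.25). The sum therefore hides changes in both directions. Of 4 tested markers of round spermatids, 3 were lower in Trf2-/-, as were 20.2% of all genes tested. That list summed to 9.16 to 10.6 CPM in WT and 5.37 to 7.12 CPM in Trf2-/-. Spermatogonial markers summed to 166 to 183 CPM in WT and 169 to 221 CPM in Trf2-/-. The chemokine genes took between 0.00662% and 0.0117% of all counts of a mouse. Trf2-/- mouse 1 had the highest of the 3 mutant values in 9 of the 12 chemokine genes that could be tested, and the results below are therefore also given without it where it mattered.

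The family names can be read in the coding sequences of the ligands. The stretches below were read from the GENCODE transcripts of build NCBIM37 and show the ligands that were tested, with the codons of the first paired cysteines in capitals and 6 codons on each side. The pair sits side by side in the first 4 and is split by 1 codon in the last 3.
Ccl8: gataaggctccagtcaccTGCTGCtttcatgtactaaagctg
Ccl12: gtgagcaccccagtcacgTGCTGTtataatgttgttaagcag
Ccl25: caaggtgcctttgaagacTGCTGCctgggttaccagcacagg
Ccl27a: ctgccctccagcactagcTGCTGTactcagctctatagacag
Cxcl12: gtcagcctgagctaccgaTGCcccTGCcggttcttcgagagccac
Cxcl14: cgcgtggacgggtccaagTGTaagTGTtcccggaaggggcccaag
Cxcl16: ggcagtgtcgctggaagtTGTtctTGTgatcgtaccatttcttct
Ccl8 and Ccl12 lie beside each other on chromosome 11, and their transcripts shared no run of 50 bases with those of any other protein-coding gene. Other sequences were not searched.

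Promoters were searched for TATAA on the sense strand with its first base 45 to 20 bases before the start. Trf2 is a relative of the TATA-binding protein, but the study states that it has no selective recognition of TATA. A match was not tested as a sign of dependence on Trf2. RefSeq promoters of build GRCm38.p6 were found for 33 of the 46 genes, in 39 distinct windows, and 4 of those windows (10.3%) held the letters, against 3.89% of all 32851 promoters. The fourth was that of Cxcl3, which was not tested. The other 3 belong to Ccl12 and Ccl8, which were higher in Trf2-/-, and to Cxcr4, and the 100 bases before each start are printed with the match in capitals.
Ccl12 (chr11:82101745-82101844, plus strand): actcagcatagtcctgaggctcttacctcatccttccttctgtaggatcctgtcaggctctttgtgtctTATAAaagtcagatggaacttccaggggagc
Ccl8 (chr11:82115085-82115184, plus strand): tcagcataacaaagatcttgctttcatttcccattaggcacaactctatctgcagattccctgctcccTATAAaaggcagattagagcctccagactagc
Cxcr4 (chr1:128592300-128592399, minus strand): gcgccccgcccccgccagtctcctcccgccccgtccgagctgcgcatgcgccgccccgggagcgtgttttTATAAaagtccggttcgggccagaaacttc
The match began 31 bases before the start in Ccl12, 32 in Ccl8 and 30 in Cxcr4. The NF-kB letters GGGNNNTTCC, searched on both strands over the 250 bases before each start, stood in 8 of the 39 windows (20.5%) and in 4.65% of all promoters, and matches on opposite strands could overlap. None of these 8 windows belonged to a gene that was tested. The interferon letters GAAANNGAAA (ISRE) stood in 7.69% of the 39 windows and 2.98% of all promoters, and TTCNNNGAA (GAS) in 10.3% and 7.02%, both strands searched. Of the genes tested, Cxcl14 held both of the latter. A match of letters is a description of the window and not a binding site.

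Of the 46 genes, 27 were above 3 counts in at least 1 mouse and 19 were at or under 3 counts in every mouse. A level of 3 counts equals 0.105 to 0.144 CPM in the WT libraries and 0.119 to 0.190 CPM in the Trf2-/- libraries. That level was chosen and is not a limit of detection, since genes at or under it could hold reads. Ccl19, for example, had 1, 1 and 2 counts in WT and 1, 1 and 0 counts in Trf2-/-. Of the 27 genes, 11 were above 3 counts in all 6 mice, Ccl22, Ccr4 and Cxcl1 were above it in every WT mouse but not in every mutant, and Ccl8, Ccl12 and Cxcr5 were above it in every Trf2-/- mouse but not in every WT mouse. The other 10 passed the level in some mice only. The genes at or under 3 counts throughout were the ligands Ccl1, Ccl3, Ccl5, Ccl11, Ccl19, Ccl26, Ccl27b, Cxcl2, Cxcl3 and Cxcl5 and the receptors Ccr1l1, Ccr3, Ccr6, Ccr7, Ccr8, Ccr9, Ccr10, Cxcr2 and Cxcr3.

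Enough counts for a test were present in 12 genes, 4 CC ligands, 3 CXC ligands, 3 CC receptors and 2 CXC receptors. By edgeR's quasi-likelihood test, with Benjamini-Hochberg adjustment over the 16924 genes tested and a threshold of 0.05, Ccl8, Ccl12, Cxcl12, Ccr1 and Cxcr7 were higher in Trf2-/- and Ccl25 and Ccl27a were lower. The 5 higher genes were 41.7% of the 12, where 11.2% of all genes tested were higher. The 2 lower genes were 16.7% of the 12, where 20.2% of all genes were lower. In either direction 7 genes (58.3%) passed, against 31.4% of all genes. With a change of at least 2-fold also required, 3 of the 12 (Ccl8, Ccl12 and Ccr1) were higher and 0 lower. The shares of all genes were 0.609% and 4.3%, and Ccl25 and Ccl27a changed by less than 2-fold. Ccl8, Ccl12 and Ccr1 had reached the minimum level for testing, 0.424 CPM, in every Trf2-/- mouse and not in every WT mouse. Those 3 genes therefore entered the test through the group in which they were high. The shares called higher, and above all the 2-fold share that they make up alone, are a description only. Among the 9 genes that reached that level in every mouse, 2 were called higher and 2 lower, all of them by less than 2-fold.

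**Figure D1:**
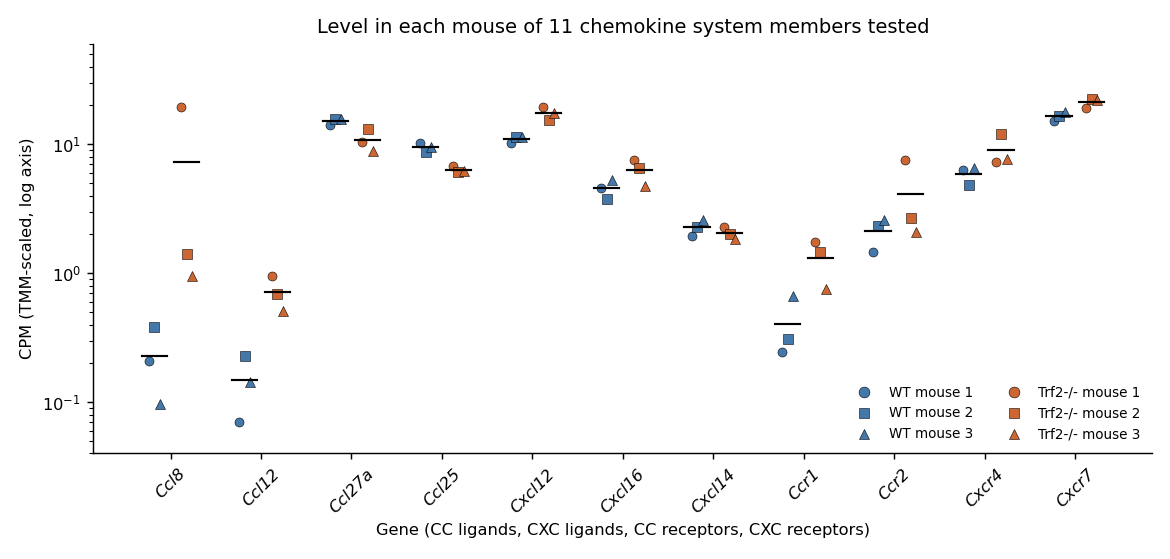
Level in CPM (log axis) of 11 of the 12 chemokine and receptor genes tested, with a point for each of the 3 WT and 3 Trf2-/- mice and a bar at each group mean. Ccl8 spans 0.0960 to 0.383 CPM in WT and 0.948 to 19.6 CPM in Trf2-/-, whereas Cxcl14 overlaps between the genotypes.

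**Figure D2:**
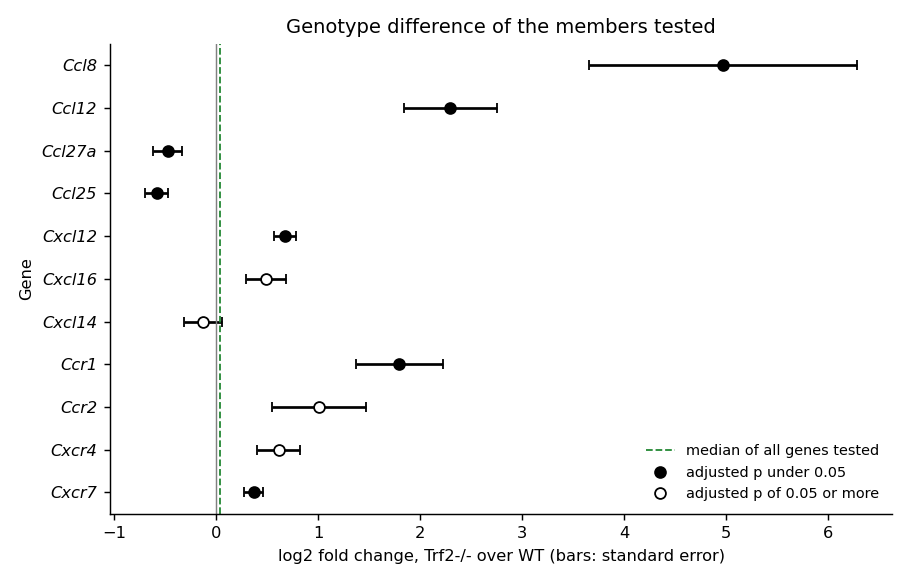
Log2 fold change of Trf2-/- against WT with its standard error (SE) for 11 of the 12 genes, where filled points passed an adjusted p of 0.05 and the dashed line marks the median of all genes tested, 0.04. The filled points run from Ccl25 at -0.58 to Ccl8 at 4.97.

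Among the CC ligands, Ccl8 showed the largest change. Ccl8 (ENSMUSG00000009185, chr11:81928687-81930301 of NCBIM37), a monocyte chemoattractant protein made by macrophages, was counted 6, 10 and 2 times in WT and 494, 33 and 15 times in Trf2-/-. All mutants lay above all WT mice, but mouse 1 alone supplied 91.1% of the Ccl8 reads of the mutants. On the CPM scale Ccl8 had 0.229 ± 0.145 (SD, n = 3) in WT and 7.32 ± 10.6 in Trf2-/-. The log2 fold change of Ccl8 was 4.97 (SE 1.31, adjusted p = 0.0201 by edgeR's quasi-likelihood test). With that mouse left out Ccl8 still differed by 2.31 on the log2 scale (adjusted p = 0.0111), and Ccl8 failed the threshold when any one WT mouse was left out, with an adjusted p of up to 0.0805.

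Ccl12 (ENSMUSG00000035352, chr11:81915347-81916902), another attractant of monocytes that acts through Ccr2, had 2, 6 and 3 counts in WT and 24, 16 and 8 counts in Trf2-/-. Each mutant was above each WT mouse, at low counts. Mean Ccl12 levels were 0.148 ± 0.0801 CPM in WT and 0.715 ± 0.225 CPM in Trf2-/- (SD, n = 3 each), a log2 fold change of 2.29 (SE 0.46, adjusted p = 0.00555, edgeR). The call for Ccl12 was kept when any one mouse was left out, with log2 fold changes of 1.91 to 2.79.

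The CC ligands with the higher levels in WT went the other way. Ccl25 (ENSMUSG00000023235, chr8:4325210-4360020), which attracts developing thymocytes and gut lymphocytes through Ccr9, had 293, 228 and 200 counts in WT and 170, 142 and 98 counts in Trf2-/-. The groups were apart on the CPM scale, at 9.51 ± 0.742 in WT and 6.34 ± 0.352 in Trf2-/- (SD, n = 3 each). Its log2 fold change was -0.58 (SE 0.11, adjusted p = 0.00494, edgeR), and the call was kept without any one mouse. The second identifier of Ccl25, whose exons lie almost wholly (99.8%) within those of the first, had 4, 1 and 1 counts in WT and 2, 3 and 2 counts in Trf2-/-. The shared bases are 41.6% of the exons of the first identifier, on the same strand. How reads in the shared part were counted is not given in the sources used here.

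Ccl27a (ENSMUSG00000073888, chr4:41716340-41721120), a chemokine known for attracting T cells to the skin through Ccr10, had 403, 409 and 329 counts in WT and 262, 307 and 140 counts in Trf2-/-. All mutants were below all WT mice in CPM, at 15.2 ± 0.973 in WT and 10.8 ± 2.19 in Trf2-/- (SD, n = 3 each). The log2 fold change of Ccl27a was -0.48 (SE 0.14, adjusted p = 0.0297, edgeR), and the threshold was missed in 5 of the 6 fits that left out a mouse, with an adjusted p of up to 0.0982. Of the 50-base runs of its transcripts, 43.4% were shared with transcripts of other protein-coding genes. How the counting handled reads from shared runs is not given in the sources used here. One of the genes that shared runs, Gm13308 (329 of the 1722 runs), had 110, 122 and 113 counts in WT and 44, 84 and 19 counts in Trf2-/-. Its log2 fold change was -1.04 (adjusted p = 0.0404, edgeR), and its part in the value of Ccl27a was not tested.

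Among the CXC ligands, only Cxcl12 passed the test. Cxcl12 (ENSMUSG00000061353, chr6:117118553-117131385), the ligand of Cxcr4 and Cxcr7, had 294, 296 and 236 counts in WT and 490, 363 and 276 counts in Trf2-/-. Scaled to depth, these were 10.2, 11.3 and 11.3 CPM against 19.4, 15.6 and 17.4 CPM, so the lowest mutant was well above the highest WT mouse. The log2 fold change of Cxcl12 was 0.67 (SE 0.11, adjusted p = 0.00188, edgeR), with 0.57 to 0.74 when any one mouse was left out and the call kept each time.

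Cxcl16 (ENSMUSG00000018920, chr11:70267485-70273486), a ligand of Cxcr6 that is anchored in the membrane, had 131, 99 and 111 counts in WT and 190, 154 and 75 counts in Trf2-/-. Trf2-/- mouse 3, at 4.74 CPM, lay inside the WT range of 3.79 to 5.33 CPM, and the log2 fold change of 0.49 (SE 0.20, adjusted p = 0.0893, edgeR) did not pass. Cxcl16 shares 18.3% of its exon bases with Zmynd15 on the opposite strand. Zmynd15 had 1466, 1138 and 1063 counts in WT and 400, 392 and 82 counts in Trf2-/-, a log2 fold change of -1.90 (adjusted p = 0.00180, edgeR). The strand setting of the counting is not given in the sources used here. Cxcl14 (ENSMUSG00000021508, chr13:56390008-56397912), a homeostatic chemokine of epithelia, had 56, 60 and 54 counts in WT and 58, 47 and 29 counts in Trf2-/-. Its groups overlapped in CPM, with a log2 fold change of -0.13 (SE 0.19, adjusted p = 0.616, edgeR).

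Both receptors of Cxcl12 were among the genes tested. Cxcr7 (ENSMUSG00000044337, chr1:92100555-92113326), an atypical receptor that takes up Cxcl12 without signalling through G proteins, had 434, 433 and 371 counts in WT and 485, 522 and 351 counts in Trf2-/-. In CPM the mutants, at 19.2, 22.4 and 22.2, were above the WT mice, at 15.1, 16.6 and 17.8. The log2 fold change of Cxcr7 was 0.37 (SE 0.09, adjusted p = 0.0180, edgeR), which failed the threshold without WT mouse 1, WT mouse 2 or Trf2-/- mouse 2, with an adjusted p of up to 0.0747.

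Cxcr4 (ENSMUSG00000045382, chr1:130484776-130488870), the signalling receptor of Cxcl12, had 181, 127 and 137 counts in WT and 184, 280 and 121 counts in Trf2-/-. Its CPM did not overlap between the genotypes, at 4.86 to 6.57 in WT and 7.30 to 12.0 in Trf2-/-, with the highest value in mutant mouse 2. The log2 fold change of Cxcr4 was 0.61 (SE 0.21) with an adjusted p of 0.0534 by edgeR, just outside the threshold. The adjusted p of Cxcr4 ran from 0.0182 to 0.180 over the alternatives tried.

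Ccr1 (ENSMUSG00000025804, chr9:123876959-123883525), a receptor on myeloid cells for several inflammatory ligands, had 7, 8 and 14 counts in WT and 44, 34 and 12 counts in Trf2-/-. Scaled to depth the groups came close without overlap, with the highest WT mouse at 0.672 CPM and the lowest mutant at 0.759 CPM. The log2 fold change of Ccr1 was 1.80 (SE 0.43, adjusted p = 0.0128, edgeR). That call was lost without WT mouse 1, WT mouse 2 or Trf2-/- mouse 1, where the adjusted p reached 0.0600.

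Ccr2 (ENSMUSG00000049103, chr9:124016689-124028296), the receptor through which monocytes leave the bone marrow, had 42, 61 and 54 counts in WT and 191, 63 and 33 counts in Trf2-/-. Only mutant mouse 1 lay outside the WT range by a wide margin, and the log2 fold change of 1.01 (SE 0.46, adjusted p = 0.124, edgeR) did not pass. Without mutant mouse 1 the log2 fold change of Ccr2 was 0.19 (adjusted p = 0.658, edgeR). Without mutant mouse 3 it was 1.29 (adjusted p = 0.0328), and with genes of at least 1 count admitted the adjusted p was 0.0470, so that Ccr2 passed in both of these fits.

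Over the 12 genes the median log2 fold change was 0.64, against 0.04 over all genes tested, with 9 genes above 0 and 3 below, where 54.9% of all genes were above 0. The 12 include Ccl8, Ccl12 and Ccr1, which entered the test through the mutants, so the median and these counts are a description only. The median was 0.48 over the 9 genes with at least 10 counts in every mouse, and 0.38 over the 12 without Trf2-/- mouse 1. The chemokine genes were measured less precisely than most, with a median SE of 0.20 on the log2 scale against 0.10 for all genes and a median level of 4.60 CPM against 19.5 CPM. In 6 of the 12 every mutant was above every WT mouse, which held for 22.3% of all genes and again includes Ccl8, Ccl12 and Ccr1, and in 2 every mutant was below, which held for 26.8% of all genes. The remaining 4 overlapped. Groups of 3 against 3 mice allow an exact permutation p of 0.1 at the smallest, so single genes were judged by the fit across all genes.

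The order of the genes tested by length-corrected level was led by homeostatic members. In WT, Ccl27a had 6.38 ± 0.409 CPM per kilobase (SD, n = 3), Cxcr7 had 4.93 ± 0.400, Ccl25 had 3.57 ± 0.278 and Cxcr4 had 3.27 ± 0.508. Ccl25 and Cxcr4 were within each other's spread. Ccl27a and Ccl25 were divided by their full length, though part of each is shared with another entry. Below them came Cxcl16 at 1.69 ± 0.284, Cxcl12 at 1.53 ± 0.0875 and Cxcl14 at 1.25 ± 0.176 CPM per kilobase, of which Cxcl16 and Cxcl12 did not differ beyond their spread. Inflammatory members were lowest, from Ccl8 at 0.449 ± 0.283 CPM per kilobase through Ccr2 at 0.333 ± 0.0925 and Ccl12 at 0.275 ± 0.149 down to Ccr1 at 0.144 ± 0.0816, with neighbours in that order within each other's spread. In Trf2-/-, Ccl8 headed the order at 14.3 ± 20.8 CPM per kilobase, a mean smaller than its own SD.

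The 3 mutants did not differ from WT to the same extent. Relative to the WT mean, the median log2 ratio over the 12 genes was 0.77 in mouse 1, 0.47 in mouse 2 and 0.22 in mouse 3. Markers of macrophages followed the same order of mice. The 11 macrophage markers tested summed to 196 to 221 CPM in WT and to 442, 268 and 222 CPM in the Trf2-/- mice 1, 2 and 3. All 11 had a log2 fold change above 0, as did 54.9% of all genes, with a median of 0.73 against 0.04 over all genes. Emr1, Csf1r, C1qa, C1qb and Lyz2, 5 of the 11, were called higher by edgeR, where 11.2% of all genes were. The pan-leukocyte markers Ptprc, Cd52, Coro1a and Laptm5 summed to 13.8 to 15.7 CPM in WT and to 46.8, 18.9 and 13.9 CPM in the mutants, and their adjusted p-values of 0.0582 to 0.244 by edgeR did not pass, though Ptprc and Coro1a had an unadjusted p under 0.05. The part of macrophage content in the chemokine values was not tested, and in whole testis more cells of a type and more RNA per cell cannot be told apart.

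**Figure D3:**
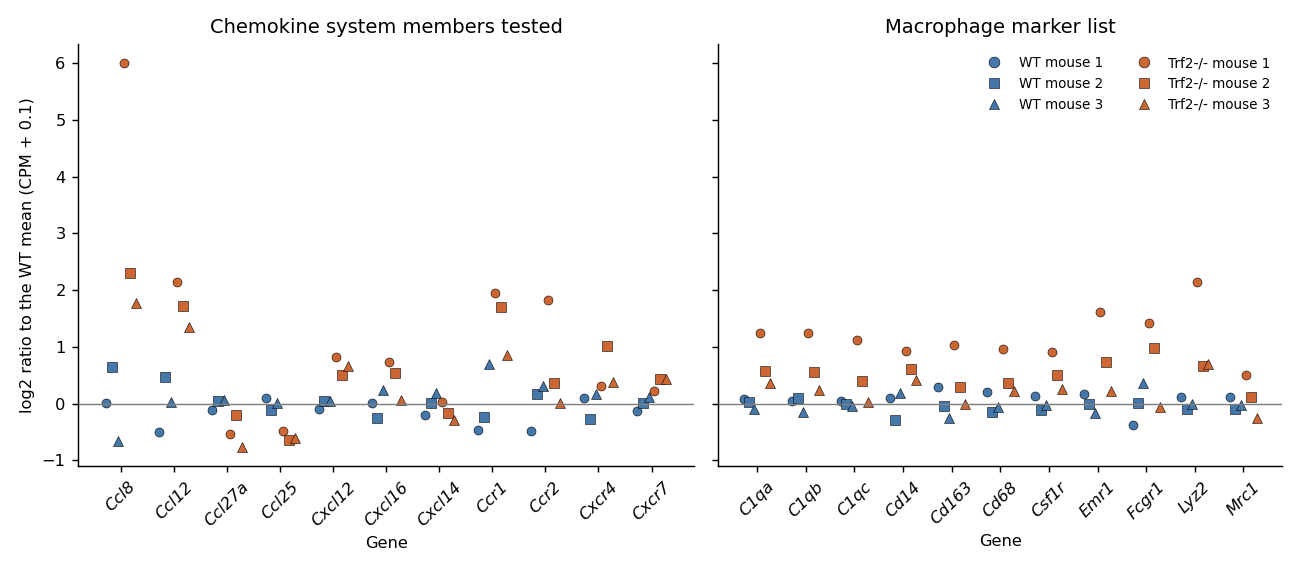
Log2 ratio of each mouse to the WT mean, computed on CPM + 0.1, for 11 of the 12 chemokine and receptor genes and for the 11 macrophage markers, with a point for each mouse. The median of the 12 genes falls from 0.77 in Trf2-/- mouse 1 to 0.47 in mouse 2 and 0.22 in mouse 3, and the summed macrophage markers have the same order at 442, 268 and 222 CPM.

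For T cells, Cd3g, Cd3e and Cd8a were at or under 3 counts in every mouse, and the list summed to 4.75 to 5.71 CPM in WT and to 8.09, 5.06 and 4.99 CPM in the Trf2-/- mice 1, 2 and 3. The NK cell markers Klrk1, Klrb1c and Ncr1 were at that level too, with list sums of 0.209 to 0.345 CPM in WT and 0.952, 0.343 and 0.569 CPM in the mutants. Neutrophil markers summed to 1.58 to 2.93 CPM in WT and 7.86, 1.72 and 2.02 CPM in the mutants, so that mutant mouse 1 was the highest of the 6 mice in all of these lists. Their part in the values of that mouse was not tested. B cell markers summed to 2.06 to 3.38 CPM in WT and 1.01 to 2.46 CPM in Trf2-/-. Of the dendritic cell list, which summed to 28.5 to 30.9 CPM in WT and 26.6 to 32.6 CPM in Trf2-/-, Clec9a was at or under 3 counts in every mouse. Sertoli cell markers summed to 1209 to 1341 CPM in WT and 1421 to 1595 CPM in Trf2-/-, of which Clu had 1094 and 1275 CPM on average. Endothelial markers summed to 32.4 to 36.3 CPM in WT and 39.2 to 48.5 CPM in Trf2-/-. Neither sum overlapped between the genotypes, while every mutant was above every WT mouse in 22.3% of all genes tested, each taken singly. Of 5 markers each, 2 and 1 were called higher by edgeR, against 11.2% of all genes. Leydig cell markers (181 to 360 CPM in WT and 185 to 326 CPM in Trf2-/-) overlapped. So did peritubular markers (289 to 371 CPM and 363 to 417 CPM). By edgeR 1 of 6 Leydig markers, 1 of 5 peritubular and 1 of 5 spermatogonial markers were called higher. Median log2 fold changes were 0.22 for the Sertoli list and 0.15 for the endothelial list. They were 0.27 for Leydig, 0.22 for peritubular and 0.19 for spermatogonial markers, so a rise was not particular to the Sertoli and endothelial lists. Sertoli cells and endothelium can make Cxcl12. The part of these cells in the Cxcl12 value was not tested.

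A further 15 genes were above 3 counts in some mouse and had too few counts for the test, and their counts are given as a description. The ligands of Ccr2 lie beside Ccl8 and Ccl12 on chromosome 11. Ccl7 had 0, 3 and 1 counts in WT and 10, 9 and 0 counts in Trf2-/-, a depth-scaled ratio of 5.58 with a 95% exact interval of 1.86 to 22.6 that covers counting error only. Ccl2 had 1, 0 and 4 counts in WT and 4, 6 and 0 counts in Trf2-/-, with an interval of 0.732 to 8.77 around its ratio of 2.35. Mutant mouse 3 had 0 counts of both genes. Scaled to depth, the other mutants were above every WT mouse for Ccl7, but for Ccl2 mutant mouse 1, at 0.159 CPM, was below WT mouse 3, at 0.192 CPM.

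Ccl9 and Ccl6 are chemokines of rodents that act on Ccr1. Ccl9 had 2, 4 and 3 counts in WT and 22, 9 and 3 counts in Trf2-/-, a ratio of 4.44 (interval 2.09 to 10.5). Ccl6 had 3, 9 and 11 counts in WT and 23, 5 and 0 counts in Trf2-/-, where mutant mouse 1 was the highest of the 6 mice and mouse 3 the lowest.

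Cxcr6, the receptor of Cxcl16, had 0, 1 and 0 counts in WT and 13, 5 and 1 counts in Trf2-/-, a ratio of 22.3 with an interval of 3.55 to 928. Cxcl13, which forms B cell follicles, had 0 counts in every WT mouse and 5, 1 and 0 counts in Trf2-/-. Its receptor Cxcr5 had 12, 2 and 6 counts in WT and 10, 7 and 4 counts in Trf2-/-. With genes of at least 1 count admitted to the fit, Ccl9 (adjusted p = 0.0193) and Cxcr6 (adjusted p = 0.0109) passed edgeR's test and the others of the 15 did not.

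Some of the 15 had fewer reads in the mutants. Cxcl1, an attractant of neutrophils through Cxcr2, had 21, 10 and 8 counts in WT and 3, 7 and 3 counts in Trf2-/-, a ratio of 0.392 (interval 0.192 to 0.750). Ccl22, a ligand of Ccr4 made by dendritic cells, had 9, 12 and 9 counts in WT and 5, 4 and 1 counts in Trf2-/-, with the same ratio and an interval of 0.171 to 0.824. With low genes admitted to the fit their adjusted p-values were 0.0751 and 0.0850 by edgeR, so neither passed.

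The partner ligand of Ccl22, Ccl17, had 6, 4 and 5 counts in WT and 4, 4 and 4 counts in Trf2-/-. Their receptor Ccr4 had 13, 6 and 7 counts in WT and 8, 5 and 3 counts in Trf2-/-. The ranges of both genes met or overlapped in raw counts. The interferon-induced ligands of Cxcr3 were as low, with Cxcl10 at 3, 3 and 4 counts in WT and 6, 10 and 1 in Trf2-/- and Cxcl9 at 8, 6 and 2 counts in WT and 5, 7 and 1 in Trf2-/-. Cxcl10 shares 8.75% of its exon bases with the abundant Art3 on the opposite strand. Ccl24, a ligand of the eosinophil receptor Ccr3, had 7, 2 and 3 counts in WT and 2, 1 and 2 counts in Trf2-/-.

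**Figure D4:**
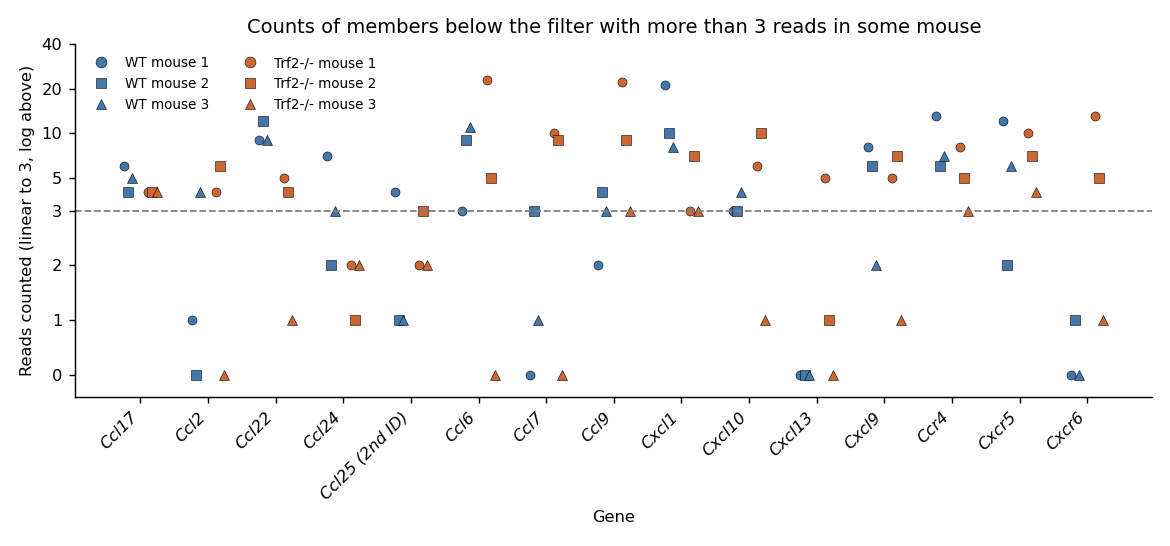
Raw counts of the 15 genes that were above 3 counts in some mouse and were not tested, with a point for each WT and Trf2-/- mouse and a dashed line at 3 counts. Cxcl1 reaches 21 counts in WT and 7 in Trf2-/-, while Ccl9 reaches 4 counts in WT and 22 in Trf2-/-.

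Chemokine genes lie in clusters, and summed counts per cluster show where the reads fell. The cluster of Ccl2, Ccl7, Ccl11, Ccl12, Ccl8 and Ccl1 (chr11:81849073-82119192, NCBIM37) had 9, 21 and 11 counts in WT and 532, 64 and 23 counts in Trf2-/-, where most mutant reads came from Ccl8. Further along chromosome 11, Ccl5, Ccl9, Ccl6 and Ccl3 (chr11:83339280-83462857) had 5, 15 and 14 counts in WT and 48, 15 and 3 counts in Trf2-/-. In both of these clusters mutant mouse 1 was highest and mutant mouse 3 lowest of the mutants. The neutrophil-attracting Cxcl5, Cxcl3, Cxcl1 and Cxcl2 (chr5:91188325-91334935) instead had 21, 12 and 8 counts in WT and 4, 7 and 4 counts in Trf2-/-, nearly all from Cxcl1.

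Read as ligands with their receptors, Cxcl12 with Cxcr4 and Cxcr7 was a set in which all partners were above 3 counts in every mouse. For Ccl25 and Ccl27a the receptors Ccr9 and Ccr10 stayed at or under 3 counts in all mice. The same held for Ccr8, a receptor of mouse Ccl8, for Cxcr2, the receptor of Cxcl1, and for Cxcr3, the receptor of Cxcl9 and Cxcl10. Of the Ccr2 ligands, Ccl12 was higher in Trf2-/- while Ccr2 did not pass the test.

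The genes called in lists around the chemokine system had smaller fold changes than Ccl8 and Ccl12. Of 9 further chemokines and receptors tested, 1 passed, a share near the 11.2% of all genes called higher, and the median log2 fold change was 0.20. The higher gene was Ccrl1 (ENSMUSG00000079355), an atypical receptor that takes up homeostatic CC ligands. Its level was 0.950 ± 0.0653 CPM in WT and 1.69 ± 0.487 CPM in Trf2-/- (SD, n = 3 each). The log2 fold change was 0.85 (adjusted p = 0.0326, edgeR). A second identifier of Ccrl1 was at or under 3 counts in every mouse, with 0, 0 and 1 counts in WT and 3, 1 and 0 counts in Trf2-/-. Cx3cr1, the fractalkine receptor of macrophages and the most abundant of the list, had 14.1 ± 2.94 CPM in WT and 15.3 ± 4.35 CPM in Trf2-/- and did not pass (adjusted p = 0.669, edgeR).

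Downstream of the receptors, 5 of 21 signalling genes tested were higher and 1 was lower, with a median log2 fold change of 0.25, where 11.2% of all genes were higher, 20.2% were lower and the median was 0.04. Pik3r5, a regulatory subunit of the G protein-coupled PI3 kinase gamma, was higher by 1.08 on the log2 scale (adjusted p = 0.0396, edgeR). Jak2, the G protein subunit Gnai2, the kinase Ptk2b and the arrestin Arrb2 had log2 fold changes of 0.28, 0.15, 0.53 and 0.41. Adrbk2, a kinase that desensitizes G protein-coupled receptors, was the lower one, at 60.8 ± 2.79 CPM in WT and 28.7 ± 7.41 CPM in Trf2-/- (SD, n = 3 each) with a log2 fold change of -1.07 (adjusted p = 0.00135, edgeR). The most abundant of the list, the G protein subunit Gnb1, had 245 ± 8.39 CPM in WT and 259 ± 10.8 CPM in Trf2-/- and did not pass.

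Of 17 inducers of chemokine transcription tested, 3 were higher and 1 was lower, with a median log2 fold change of 0.24, against the same 11.2%, 20.2% and median of 0.04 over all genes. The higher ones were the interferon-induced factor Irf1 (log2 fold change 0.53, adjusted p = 0.0164, edgeR), the NF-kB subunit Nfkb1 (0.36, adjusted p = 0.00968) and the NF-kB inhibitor Nfkbia (0.27, adjusted p = 0.0338). Nfkbie, another inhibitor of NF-kB, was lower at -0.61 (adjusted p = 0.0463). The cytokines Il6 and Il10 were at or under 3 counts in every mouse.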

How the data were processed

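Per the labels and the study's methods, total RNA of day 21 testes (3 WT, 3 Trf2-/-) was depleted of ribosomal RNA and read as single-end 50-base reads on build mm9 (NCBIM37). The submitters' processing notes name CASAVA 1.8.2, TopHat2 2.0.10, Bowtie2 2.1.0, HTSeq 0.5.4p3 and DESeq2 1.0.19. The deposited table holds raw read counts per gene, made by the authors, and these were used as they stand. Strand setting and annotation release of the counting are not given in the sources used here. A further 12 columns of normalized values per sample, and the authors' own fold changes and p-values, were not used.

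Counts were fitted once over the whole table with edgeR 4.0.16 (R 4.3.3; filterByExpr, TMM, glmQLFit, glmQLFTest, no covariate), and Benjamini-Hochberg adjustment ran over all 16924 genes tested. The scripts were tested on simulated data. CPM used TMM library sizes. DESeq2 1.42.0 and other settings served as alternatives. Same-genotype libraries differed beyond sampling noise (chi-square over degrees of freedom of at least 3.51), so all 6 mice were counted. A 3-count level and the exact 95% intervals of depth-scaled ratios cover counting error only, since the reads carry no molecular identifiers.

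The genes and the marker and pathway lists were chosen with earlier results of these data known. Every chemokine gene is accounted for by its counts: full values for genes tested, counts for untested genes above 3 counts in any mouse, and names for the others. Of the pathway lists, the genes past an adjusted p of 0.05 and the most abundant gene are named. Of every marker list the sum, and any marker at or under 3 counts in every mouse, are given, with calls for some lists. Genes outside these rules (Gm13308, Zmynd15, Art3, and the macrophage, leukocyte, Sertoli and spermatocyte markers named) were named after their values were seen. The values of 1 chemokine system gene tested and of 1 gene of the inducer list are not reported here, and both remain in the counts and medians. Positions and transcripts came from GENCODE vM1 on NCBIM37, where gene positions equalled those of the table, and promoters came from RefSeq on GRCm38.p6.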

Additional observations from a re-analysis of the deposited data

How the results depend on the processing

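The 5 chemokine genes called higher became 9 with genes of at least 1 count admitted, 2 with at least 10 counts required in every mouse, 2 at an adjusted p of 0.01, 3 with a 2-fold change required, and 2 to 8 with a mouse left out. Without a filter the median log2 fold change was 0.33. The filter of 10 counts removed Ccl8, Ccl12 and Ccr1 from the test. The 2 genes called lower became 1 with library size alone, 1 at an adjusted p of 0.01, 0 with a 2-fold change and 1 to 2 with a mouse left out. The 0 rests on the fold limit, since both genes still had an adjusted p under 0.05. With library size alone 61.3% of all calls were higher, against 35.6% with TMM, and the median log2 fold change of all genes was 0.13 in place of 0.04; Ccl27a failed, and Cxcl16 and Cxcr4 passed. Over all genes, 1889 were higher, with 4267 by library size alone, 481 at an adjusted p of 0.01, 103 with a 2-fold change and 797 to 1804 with a mouse left out. The 3423 lower genes became 727 with a 2-fold change and 2613 to 3345 with a mouse left out. Genes above 3 counts in every mouse of a genotype numbered 17, and 11 were above 10 counts. Deviations of mice with the same replicate number had correlations of -0.09, -0.04 and -0.10, against -0.03 to 0.10 for mice with different numbers. With 3 mice per group these values cannot decide whether mice with the same number share more than that number. With the replicate block 5 chemokine genes were higher and 2 lower, the same 7 genes. No direction reversed. DESeq2 gave Ccl8 no adjusted p and called Cxcr4. Of 164 single-gene values under the alternatives, 132 kept their side of the threshold, 23 lost it and 9 gained it. The causes were not tested.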
